A study of Mus musculus with 12 samples.

Results

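The nuclear genes of the oxidative phosphorylation subunits were followed through the brain and the liver of aged mice under periodic heat stress. The members were chosen by gene symbol alone, as the rows named Nduf followed by a, b, c, s or v and a number, Sdha to Sdhd, all Uqcr symbols, Cyc1, the Cox5 to Cox8 subunit symbols with a letter a to c, and all Atp5 symbols. This gave 83 of the 25239 genes in the deposited count table. Complex I held 35 of them, complex II 4, complex III 9, complex IV 18 and complex V 17. Ndufa4, named for complex I, was counted with complex IV, where its protein is known to sit, and the row Cox7c-ps1 is a pseudogene.

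RNA was taken from male C57BL/6J wild type mice aged 24 months in both groups. The heat stress group was kept at 40 °C and 60% relative humidity for 3 h a day over 15 days, and the control group was not heated. Brain and liver were each sequenced from 3 control and 3 heat stress samples, which gave 12 libraries of stranded, oligo-dT selected messenger RNA. The labels do not say whether a brain and a liver library came from the same mouse, nor which region of the brain was taken. Each library is taken as 1 replicate, and p-values measure only the spread between these samples. Library totals ran from 10466198 to 15609040 counts, and the members took between 1.20% and 2.40% of them. The tissue labels were borne out by their markers, since 8 neuronal genes summed to 6172 to 8557 CPM in brain and 14.4 to 34.1 CPM in liver, and 8 hepatocyte genes to 82730 to 117846 CPM in liver and 231 to 2419 CPM in brain.

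Oxidative phosphorylation passes electrons from NADH through complex I, or from succinate through complex II, to ubiquinone, then through complex III and cytochrome c to complex IV, which reduces oxygen. Protons pumped on the way drive complex V, the ATP synthase. Most subunits are encoded in the nucleus, and a few catalytic ones in the mitochondrial genome, which are not analysed here. The core subunits carry out the chemistry, whereas the accessory subunits, mostly small proteins with short messenger RNAs, hold the complexes together. Neurons depend on this pathway for firing and synaptic transmission, and hepatocytes for gluconeogenesis, urea synthesis and the burning of fatty acids.

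The promoters show how unlike the members are in the sequence around their start sites. RefSeq gave a promoter of 300 bases on GRCm38.p6, 250 before and 50 after the start, for 68 of the 83 members. The lines below are read 5′ to 3′ on the strand of the gene, and capitals mark matches on either strand to 1 of 5 motifs, namely CCGGAAG of the ETS factors including GABPA, CGCATGCG of NRF1, AAGATGGC of YY1, the GC box GGGCGG and the TATA box TATAAA. Atp5md, which encodes a small membrane subunit of complex V, is shown because it had the largest difference in heat-stressed brain, at chr19:47090598-47090897 on the minus strand. Atp5l, the subunit g gene at chr9:44920693-44920992 on the minus strand, is shown for its ETS and NRF1 letters. It had a log2 fold change of 0.76 in heat-stressed brain. With similar values there, Ndufb4 (0.79) held only a GC box and Cox7c (0.77) no match. Atp5b, the catalytic beta subunit gene at chr10:128083057-128083356 on the plus strand, is shown because its fold change was near 0. Cox8b, a heart and skeletal muscle isoform of complex IV at chr7:140900397-140900696 on the minus strand, is shown because it separated 2 of the liver libraries. Every promoter shown holds a match, whereas only 47 of the 68 members with a promoter had any.
Atp5md: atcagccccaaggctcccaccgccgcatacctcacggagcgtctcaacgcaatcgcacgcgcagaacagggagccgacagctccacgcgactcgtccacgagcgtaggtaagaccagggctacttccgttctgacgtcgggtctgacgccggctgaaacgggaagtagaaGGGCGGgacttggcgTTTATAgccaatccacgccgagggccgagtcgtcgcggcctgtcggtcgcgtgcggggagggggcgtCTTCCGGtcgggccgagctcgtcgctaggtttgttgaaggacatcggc
Atp5l: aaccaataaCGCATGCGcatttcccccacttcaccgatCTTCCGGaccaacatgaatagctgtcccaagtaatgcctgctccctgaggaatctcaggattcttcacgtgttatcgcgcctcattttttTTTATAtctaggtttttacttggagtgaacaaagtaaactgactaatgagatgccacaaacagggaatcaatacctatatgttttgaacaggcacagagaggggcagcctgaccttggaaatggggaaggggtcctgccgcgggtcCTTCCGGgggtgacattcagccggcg
Atp5b: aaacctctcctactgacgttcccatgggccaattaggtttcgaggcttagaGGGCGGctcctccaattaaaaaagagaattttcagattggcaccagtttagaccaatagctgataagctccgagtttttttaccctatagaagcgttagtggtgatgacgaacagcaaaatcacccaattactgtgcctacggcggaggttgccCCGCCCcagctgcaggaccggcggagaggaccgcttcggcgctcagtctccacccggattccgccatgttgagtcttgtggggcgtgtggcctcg
Cox8b: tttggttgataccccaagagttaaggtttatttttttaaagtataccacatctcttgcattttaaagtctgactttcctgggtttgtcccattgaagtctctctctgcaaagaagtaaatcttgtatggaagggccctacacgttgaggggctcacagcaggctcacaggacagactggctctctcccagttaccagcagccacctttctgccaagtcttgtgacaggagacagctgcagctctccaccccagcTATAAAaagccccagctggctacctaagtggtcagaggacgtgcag

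The ETS letters were found in 17 of the 68 promoters, or 25.0%, and in 9.93% of those of all 27025 genes with a promoter in the same RefSeq table. The NRF1 letters stood in 9, or 13.2%, against 2.07% of all genes. The YY1 letters stood in 10, or 14.7%, against 3.19%. The GC box was found in 41.2% of the members and 38.2% of all genes, and the TATA box in 11.8% and 15.7%. Among all matches in the members, 1 pair of different motifs shared a base. In the brain comparison described next, members with the ETS letters had a median log2 fold change of 0.49 and those without 0.44, and the NRF1 letters gave 0.34 and 0.48. A match in these letters is not a measured binding site.

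In brain, the members had higher levels in the heat stress group than in the control group, although none passed the test adjusted over all genes. The median log2 fold change of the 79 members that could be tested was 0.45, with 74 above 0 and 5 below, while the median of all 14806 tested genes was -0.003. Differences were largest in the accessory subunits of complexes I, III and IV and in the small membrane subunits of complex V, and near 0 in the large catalytic subunits. In bulk tissue, fewer cells of a type and less RNA per cell cannot be told apart.

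The test was the quasi-likelihood test of edgeR on the counts, with p-values adjusted over all genes tested by the Benjamini-Hochberg method. At an adjusted p under 0.05 edgeR called 0 of 79 members and 0% of all genes, and the smallest adjusted p of a member was 0.170. At an unadjusted p under 0.05, 50 members were higher, against 10% of all genes, and 0 were lower, also against 10%. Most members have short transcripts, and short genes had a larger share. Of the other genes under 500 bases 36.9% were higher at this p, and of those of 500 to 1000 bases 37.5%. In 48 members every heat stress library lay above every control library, which held for 12.9% of all genes, and in 0 the reverse held, against 12%. DESeq2, run as an alternative, adjusted fewer genes and called 32 of its 75 members higher at an adjusted p under 0.05, against 3.91% of its genes, and 0 lower, against 3.66%. The call of a brain difference therefore rests on which of these tests is used.

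**Figure D1:**
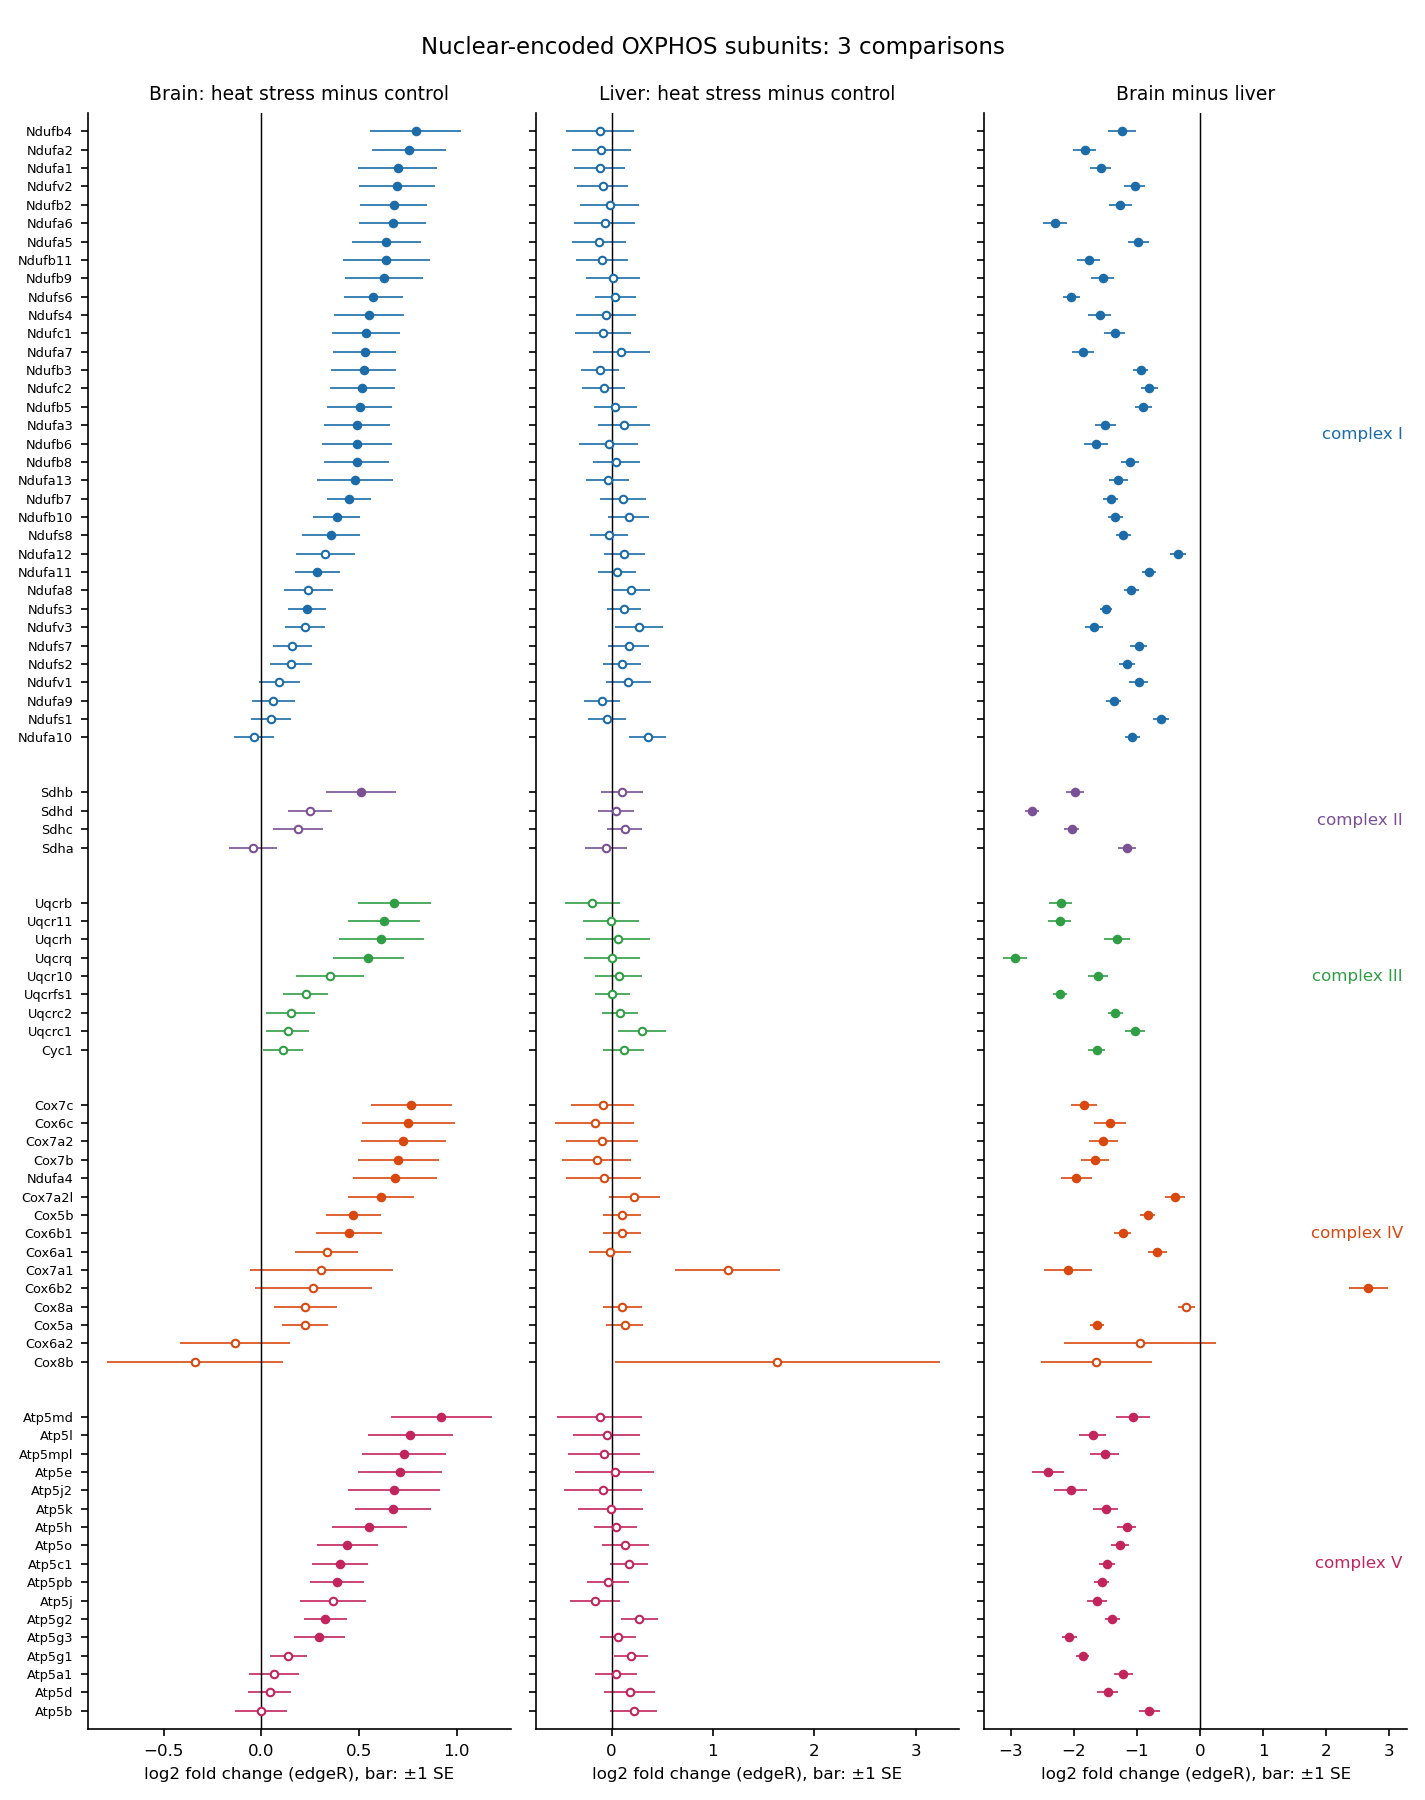
Log2 fold change of each tested member with bars of ± 1 SE, coloured by complex, for heat stress against control in brain and in liver and for brain against liver. Filled points have an unadjusted p under 0.05 in the heat stress panels and an adjusted p under 0.05 in the tissue panel. In brain 50 of 79 points are filled and all of them lie above 0, in liver none is filled, and between the tissues 75 filled points lie below 0 and 1 above.

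In complex I, which oxidises NADH, 25 of 34 members tested were higher at an unadjusted p under 0.05, with a median log2 fold change of 0.49. Ndufb7, an accessory subunit, had 66.8, 80.5 and 69.3 CPM in the control libraries and 99.0, 103 and 93.4 in the heat stress libraries. The groups did not overlap, and the log2 fold change was 0.45 with an SE of 0.11 (adjusted p = 0.170). CPM of members are counts brought to a common library size with TMM factors, here within a tissue. The summed CPM of marker genes were scaled to library totals alone, without these factors. Ndufb7, at chr8:83566671-83571626 of GENCODE M21 on GRCm38, had the smallest p of all members, and DESeq2 gave it an adjusted p of 0.0246. After the correction for transcript length and GC content given below, it gave 0.16 and did not pass the unadjusted threshold.

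Ndufa2, another accessory subunit, had 69.5, 111 and 81.6 CPM in control brain and 136, 178 and 128 CPM under heat stress, again without overlap, with a log2 fold change of 0.76 and an SE of 0.19. Ndufb4 had the largest difference in complex I, 0.79 with an SE of 0.23, from 52.6, 94.9 and 60.9 CPM to 118, 149 and 93.2 CPM. Its groups overlapped, since heat stress replicate 3 lay just under control replicate 2. Ndufb2 and Ndufa6, with log2 fold changes of 0.68 and 0.67, completed the accessory subunits with the smallest p.

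The core subunits of complex I differed less, with a median of 0.16 over 7 members against 0.52 over 27 accessory ones. Ndufs1, the largest iron-sulfur subunit, had 151, 156 and 159 CPM in control brain and 167, 153 and 162 CPM under heat stress. Its log2 fold change of 0.05 was smaller than its SE of 0.10. Ndufv1, which binds NADH and the flavin, gave 0.09 with an SE of 0.10. Ndufv2, a core subunit with an iron-sulfur cluster, was an exception at 0.70 with an SE of 0.19 (adjusted p = 0.170). The core subunits Ndufs8 (0.36) and Ndufs3 (0.23) also had an unadjusted p under 0.05, but not after the correction for length and GC content.

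In complex II, which also works in the citric acid cycle, only Sdhb passed the unadjusted threshold. This iron-sulfur subunit had 125, 194 and 147 CPM in control brain and 206, 259 and 200 CPM under heat stress, without overlap, a log2 fold change of 0.51 with an SE of 0.18. The membrane anchors Sdhc and Sdhd gave 0.19 and 0.25. Sdha, the flavoprotein that oxidises succinate, gave -0.04 with an SE of 0.12, and its control libraries (426, 432 and 422 CPM) lay within the range of the heat stress libraries (458, 383 and 401 CPM).

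In complex III, which takes electrons from ubiquinol to cytochrome c, 4 of 9 members were higher at an unadjusted p under 0.05, all of them small accessory subunits. Uqcrb, which helps to form the ubiquinone site, had 82.0, 123 and 98.5 CPM in control brain and 154, 199 and 132 CPM under heat stress, a log2 fold change of 0.68 with an SE of 0.19. Uqcr11, Uqcrh and Uqcrq gave 0.63, 0.61 and 0.55. After the correction for length and GC content, Uqcrb (0.017) and Uqcrh (0.17) did not pass the unadjusted threshold. The electron-carrying core subunits differed less, with 0.23 for the Rieske iron-sulfur protein Uqcrfs1 and 0.11 for cytochrome c1, Cyc1. In both of these core subunits the groups did not overlap. Uqcrc1, a large structural subunit that carries no electrons and is counted here as accessory, gave 0.14. Cyc1 had 152, 161 and 162 CPM in control brain against 167, 179 and 167 CPM.

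In complex IV, cytochrome c oxidase, the short accessory subunits had the largest differences. Cox7c had 125, 203 and 159 CPM in control brain and 252, 348 and 229 CPM under heat stress, without overlap, a log2 fold change of 0.77 with an SE of 0.21 (DESeq2 adjusted p = 0.0136). Cox7b gave 0.70 with an SE of 0.21 and also did not overlap. Cox6c gave 0.75 with an SE of 0.24, Cox7a2 0.73 with an SE of 0.22 and Ndufa4 0.68 with an SE of 0.21. Cox7a2l, which joins complexes III and IV in supercomplexes, gave 0.61 with an SE of 0.17. Cox5b, a zinc-binding subunit, gave 0.47 and Cox6b1 0.45, whereas Cox5a at 0.22, Cox6a1 at 0.34 and Cox8a at 0.23 did not reach the unadjusted threshold. After the correction for length and GC content, Cox7b, Cox6c, Ndufa4, Cox5b and Cox6b1 did not reach it either.

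In complex V all 5 small membrane accessory subunits were higher at an unadjusted p under 0.05, with a median of 0.73. Atp5md, Atp5k and Atp5mpl did not pass this threshold after the correction for transcript length and GC content given below. Atp5md had 141, 251 and 192 CPM in control brain and 329, 499.9 and 277 CPM under heat stress, without overlap. Its log2 fold change was 0.92 with an SE of 0.26 (adjusted p = 0.170, DESeq2 adjusted p = 0.0124), the largest of all members. Atp5l gave 0.76, Atp5mpl 0.73 and Atp5k 0.68. The peripheral stalk, which holds the catalytic head still, had a median of 0.41 over 4 members, and the proton-carrying c ring 0.30 over 3.

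The catalytic head F1 did not move as a unit. Atp5b had 1241, 1251 and 1228 CPM in control brain and 1314, 1224 and 1182 CPM under heat stress, with an SE of 0.13 around a log2 fold change near 0 (adjusted p = 0.999). Atp5a1, its partner in the catalytic sites, gave 0.06 with an SE of 0.13. Atp5e, the smallest subunit of the head, gave 0.71 with an SE of 0.21. Differences between these subunits were not tested against each other.

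**Figure D2:**
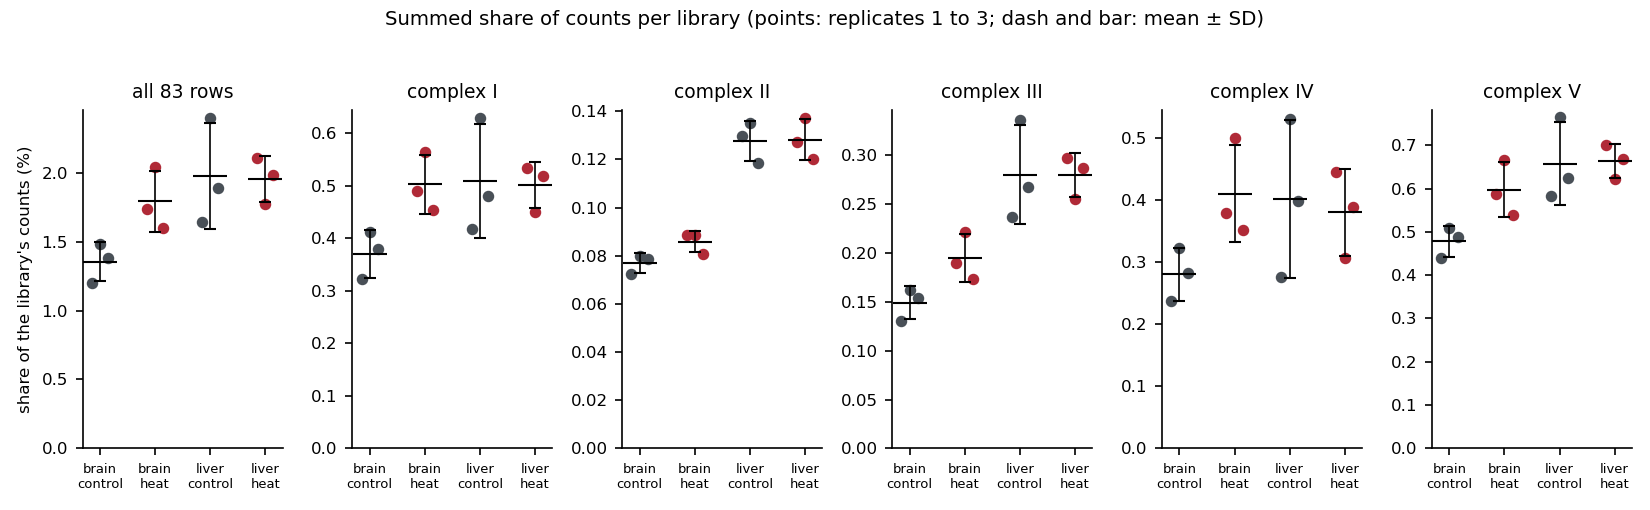
Percent of a library's total count that fell on the members of each complex, with a point for each replicate and a bar for the group mean ± SD. In brain the complex V share was 0.439% to 0.508% in control libraries and 0.540% to 0.665% in heat stress libraries.

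Added up, the members took 1.20%, 1.48% and 1.38% of the counts in the control brain libraries and 1.74%, 2.04% and 1.60% in the heat stress libraries, as the plot of the share of counts by complex shows for each. The groups did not overlap for the sum over members, and the mean share under heat stress was 1.32 times that of the control.

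The size of the difference went with the length of the transcript, in the members and in other genes. The principal transcripts of the members had a median length of 809 bases, against 3015 for all tested genes. Across genes, which are not independent replicates, Spearman's correlation of the log2 fold change with length was -0.40 over 14696 genes and -0.46 over the 79 members. The other genes under 500 bases had a median log2 fold change of 0.40 and those of 500 to 1000 bases 0.35, whereas those of 4000 bases and more had -0.14. Members of the same classes lay above these medians, with 0.68 over 9 members under 500 bases, 0.49 over 40 members of 500 to 1000 bases and 0.33 against 0.13 between 1000 and 2000 bases. At an unadjusted p under 0.05, 6 of 9, 31 of 40 and 12 of 23 members were higher in these classes. The shares of the other genes were 36.9%, 37.5% and 15.4%.

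**Figure D3:**
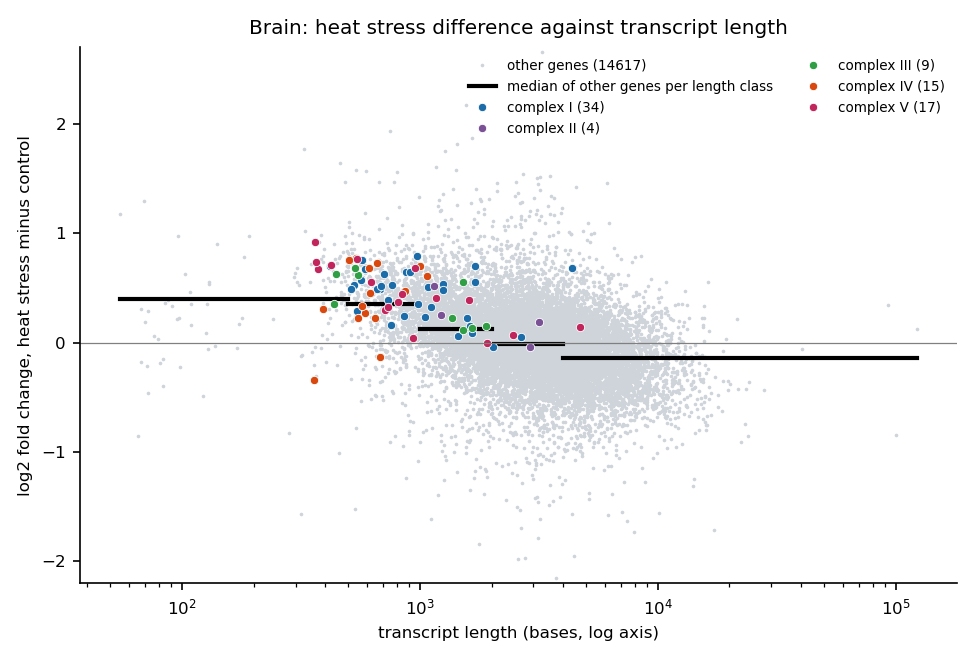
Log2 fold change of each tested member in brain (heat stress against control) against the length of its principal transcript in bases on a log axis, coloured by complex, over grey points for all other genes and black lines for their median in each length class. The other genes run from 0.40 under 500 bases to -0.14 at 4000 bases and more, and most members of up to 2000 bases lie above the line of their class.

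When each library was corrected for transcript length and GC content, the median of the members was 0.16 and 21 members were higher at an unadjusted p under 0.05, of which 20 were among the 50. All genes then had 5.94% higher. Of the members 62 lay above 0 and 17 below, against 74 and 5 without the correction. Ndufa2 (0.38), Ndufb4 (0.59), Sdhb (0.39), Uqcrq (0.45), Cox7a2l (0.39) and Cox7c (0.26) were among the 21. Of the small membrane subunits of complex V, Atp5l (0.29) and Atp5j2 (0.42) were also among them. Atp5md at 0.24 (adjusted p = 0.448), Atp5k at 0.21 and Atp5mpl at 0.011 were not. Nor were Ndufb7 (0.16), Ndufs8 (0.22), Ndufs3 (0.076), Uqcrb (0.017) and Uqcrh (0.17). In complex IV, Cox7b (0.23), Cox6c (0.28), Ndufa4 (0.13), Cox5b (0.16) and Cox6b1 (0.068) also dropped out. With lengths taken as the median over a gene's coding transcripts, an alternative chosen after seeing the data, 45 members were higher, against 7.19% of all genes, and the median was 0.34.

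The libraries were ordered along the same axis within the groups. On the log2 scale, the members' median deviation from the mean of the 6 brain libraries was -0.52, 0.01 and -0.24 in the control libraries and 0.18, 0.44 and 0.06 in the heat stress libraries. All genes under 1000 bases followed with -0.36, 0.02 and -0.22, and then 0.15, 0.35 and 0.06. Control replicate 2 and heat stress replicate 3 lay close together, and control replicate 1 and heat stress replicate 2 lay at the ends. Without heat stress replicate 2, 24 members were higher at an unadjusted p under 0.05, against 4.85% of all genes, and without control replicate 1, 36 were, against 5.12%. Without both of them, which was chosen after seeing the data, 9 were higher, 1 was lower and the median was 0.25, while 2.31% of all genes were higher and 3.96% lower.

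**Figure D4:**
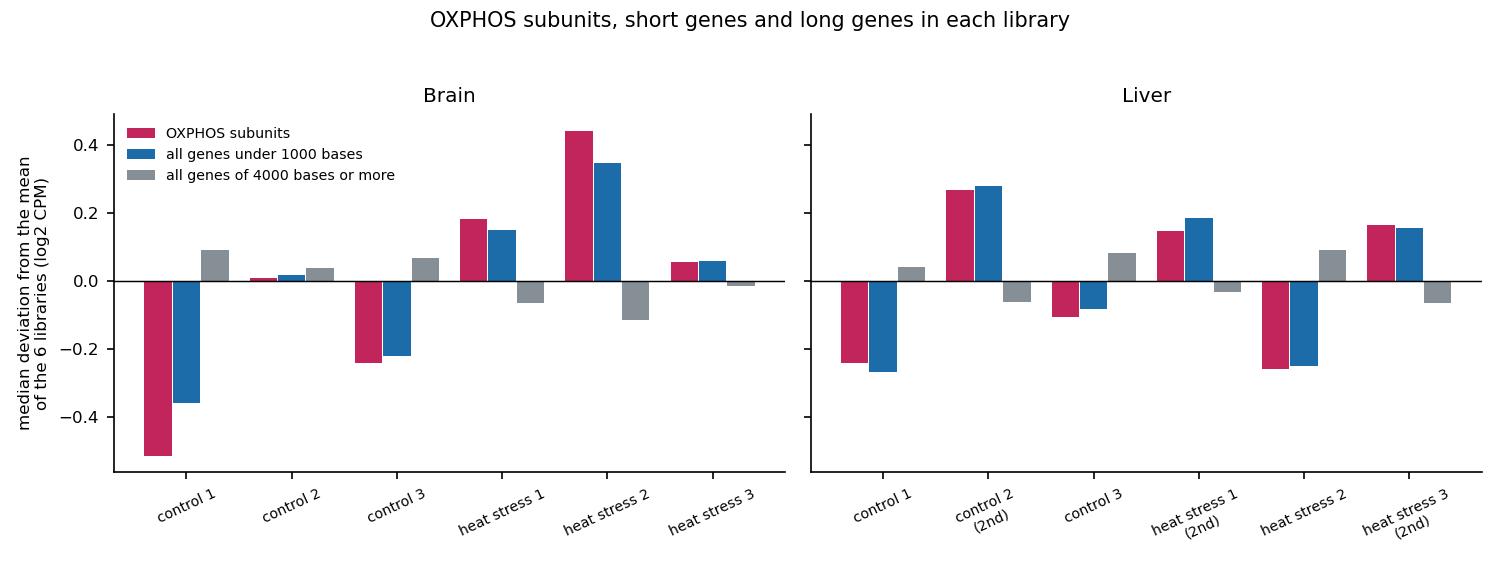
Median log2 deviation of each library from the mean of the 6 libraries of its tissue, for the members (red bars), for all genes under 1000 bases (blue) and for all genes of 4000 bases and more. In brain the members run from -0.52 in control replicate 1 to 0.44 in heat stress replicate 2, and the genes of 4000 bases and more run from 0.09 to -0.12.

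Markers of some brain regions and cell types also moved with the groups. Summed over 10 markers of the striatum, the level was 535, 890 and 545 CPM in the control libraries, scaled to library totals. It was 1259, 901 and 1997 CPM in the heat stress libraries, and 9 of the 10 were higher at an unadjusted p under 0.05. The TMM factors of control replicate 2 (0.955) and heat stress replicate 2 (1.003) would turn the order of these 2 libraries, so the groups would overlap. All 5 markers of endothelium were lower at that threshold, from 206, 98.2 and 123 CPM to 68.6, 85.5 and 67.0 CPM. All 8 markers of choroid plexus were lower, 4 of them at an unadjusted p under 0.05, from 101, 97.3 and 193 CPM to 65.7, 82.9 and 37.1 CPM. Other lists had median log2 fold changes nearer to 0, with -0.13 for neurons, -0.20 for astrocytes, 0.10 for oligodendrocytes and -0.04 for microglia. At an unadjusted p under 0.05, 1 of 8 neuronal and 1 of 5 astrocyte markers were lower. Of 5 microglial markers 2 were higher and 1 lower, and of 5 oligodendrocyte markers 0 passed. None of these markers was at 0 in every library, and their part in the difference of the members was not tested.

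Other genes of the pathway gave a mixed picture in brain. Of 45 assembly factors, which build the complexes without staying in them, 17 were higher at an unadjusted p under 0.05 and 0 lower, against 10% of all genes in each direction, with a median of 0.22, among them Pet100 at 0.71 and Cox17, the copper chaperone of complex IV, at 0.68. Of 6 further subunits outside the symbols used here, 3 were higher, Cox4i1 at 0.61, Atpif1 at 0.60 and Ndufab1 at 0.39. Of 11 transcriptional regulators of mitochondrial genes, Tfam, which packages mitochondrial DNA, was higher at 0.31 and Pprc1 lower at -0.39. This count of 1 of 11 in each direction is near the 10% of all genes. Ppargc1a, the coactivator of mitochondrial biogenesis, gave -0.13, Nrf1 -0.09 and Gabpa 0.09, all with p over the threshold. The 6 carriers of adenine nucleotides and phosphate had a median of 0.13, and none passed it.

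In liver, no member passed the test of heat stress against control. The median log2 fold change of the 77 members tested was 0.04, against 0.01 for all 12296 genes. At an adjusted p under 0.05, edgeR called 0 members and 0% of all genes, and DESeq2 0 members and 0.511% of its genes. At an unadjusted p under 0.05, edgeR called 0 members higher, against 2.97% of all genes, and 0 lower, against 2.87%, while DESeq2 called 1 higher, against 1.6%, and 0 lower, against 1.91%. In 2 members the heat stress libraries all lay above the control libraries, against 5.38% of all genes, and in 0 all lay below, against 5.73%.

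These 2 were Ndufa10, an accessory subunit of complex I, and Atp5g1, which encodes the c ring. Ndufa10 had 133, 114 and 104 CPM in control liver and 134, 144 and 172 CPM under heat stress, a log2 fold change of 0.36 with an SE of 0.18 (adjusted p = 0.901). Atp5g1 had 180, 192 and 168 CPM and then 204, 196 and 218 CPM, a log2 fold change of 0.19 with an SE of 0.17. The nearest libraries of the groups differed by little in both genes. The other members with the smallest p were Ndufv3 (0.27), Ndufa8 (0.20) and Ndufb10 (0.17) in complex I, and Uqcrc1 (0.30), Uqcrb (-0.19), Cyc1 (0.12) and Uqcrc2 (0.08) in complex III. In complex IV they were Cox7a2l (0.22) and Cox5a (0.13) beside the muscle isoforms, and in complex V Atp5g2 (0.27), Atp5b (0.22) and Atp5c1 (0.17). Complex II lay between -0.05 for Sdha and 0.13 for Sdhc.

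The spread within a group was wide in liver for the short members. Cox6c had 299.7, 906 and 625 CPM in the control libraries and 705, 337 and 587 CPM in the heat stress libraries. Ndufa4 had 405, 1132 and 830 CPM and 949.5, 463 and 828 CPM in the same order, and Atp5md 129, 408 and 288 CPM and 351, 137 and 273 CPM. Control replicate 1 and heat stress replicate 2 were the lowest of the 6 in all 3 genes, and control replicate 2 the highest.

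For all members the median deviation was -0.24, 0.27 and -0.11 in the control libraries and 0.15, -0.26 and 0.16 in the heat stress libraries, and genes under 1000 bases followed with -0.27, 0.28 and -0.08, and then 0.19, -0.25 and 0.16. The 3 libraries above 0 were those whose column names carry the suffix 2nd, which the sources used here do not explain. With the suffix as a covariate, 2 members were higher at an unadjusted p under 0.05, against 4.3% of all genes, and the median was -0.09.

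Cox6a2 and Cox8b, isoforms of complex IV that are typical of heart and skeletal muscle, separated control replicate 1 and heat stress replicate 2 of the liver from the other 4 libraries. Cox6a2, the muscle form of Cox6a1, had 121 and 407 counts in this pair, and 0, 0, 3 and 2 counts in control replicates 2 and 3 and heat stress replicates 1 and 3. Of the counts on both forms, it took 2.37% (exact 95% binomial interval 1.97% to 2.83%) and 9.08% (8.26% to 9.96%) in the pair. In control replicates 2 and 3 its counts of 0 allowed shares of up to 0.103% and 0.150% by the same interval. The share was 0.0955% (up to 0.279%) in heat stress replicate 1 and 0.0499% (up to 0.180%) in heat stress replicate 3.

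Cox8b took 2.00% and 6.95% of the counts on Cox8a and Cox8b in the pair, and between 0.0984% and 0.556% in the other 4. Cox7a1 took 2.24% and 7.69% of the counts on Cox7a1 and Cox7a2 in the pair, and between 0.783% and 1.22% in the other 4. Its own level stood apart only in heat stress replicate 2, at 19.4 CPM. In control replicate 1 it was 4.91 CPM, within the range of the other 4, and Cox7a2, the other part of the share, was low there at 214 CPM against 394 to 555 CPM in the other 4. The intervals cover counting error only.

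**Figure D5:**
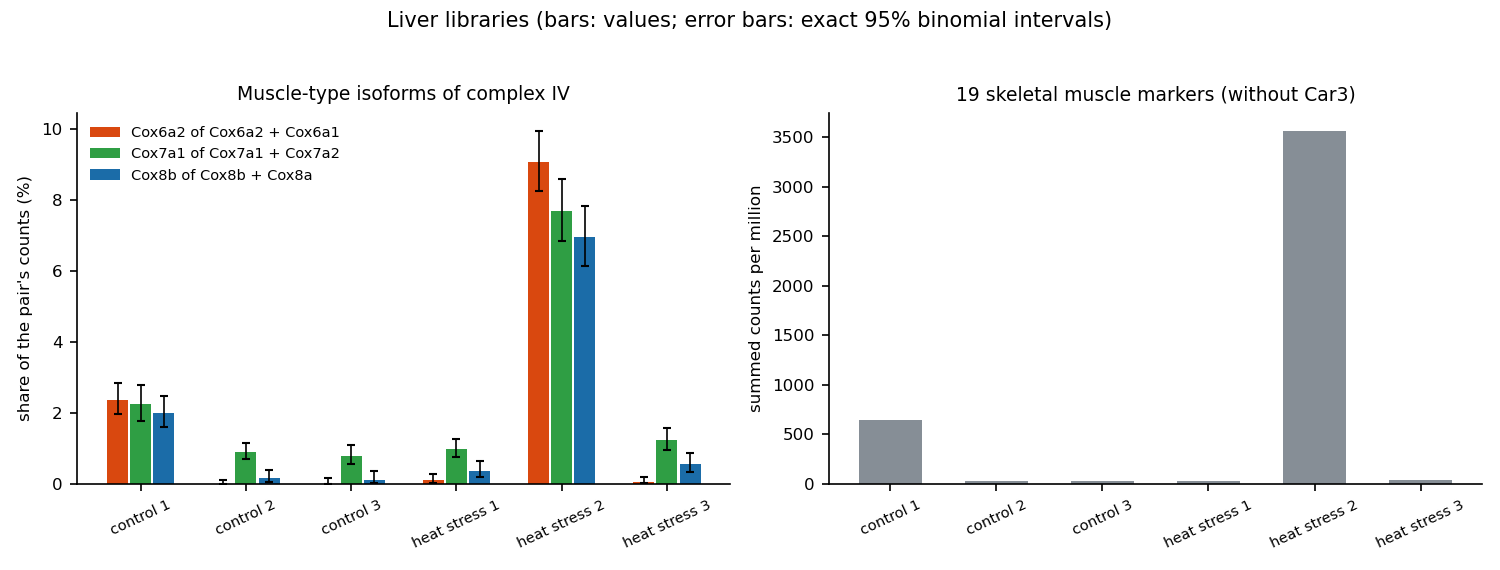
Left, percent of the counts of an isoform pair that fell on the muscle form in each liver library, with exact 95% binomial intervals. Right, summed CPM of 19 skeletal muscle markers in the same libraries. Control replicate 1 and heat stress replicate 2 have the highest share of each muscle form and sums of 647 and 3565 CPM, against 21.4 to 31.1 CPM in the other 4.

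Skeletal muscle markers moved with these isoforms. Summed over 19 markers, a list from which Car3 was left out after seeing the data because every liver library held 3090 CPM of it or more, the level was 647 CPM in control replicate 1, 3565 CPM in heat stress replicate 2 and between 21.4 and 31.1 CPM in the other 4. None of the 19 was at 0 in the pair, and between 1 and 10 were at 0 in each of the others.

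The 2 libraries stand in different groups. Cox7a1 had 4.91, 4.97 and 3.17 CPM in the control libraries and 4.69, 19.4 and 4.89 CPM in the heat stress libraries, with a log2 fold change of 1.15 and an SE of 0.52 (adjusted p = 0.860), and Cox8b gave 1.64 with an SE of 1.60 (adjusted p = 0.947). Without the pair, Cox7a1 gave 0.22 with an SE of 0.33 and Cox8b 1.93 with an SE of 0.68. The Cox8b value then came from 5 and 2 counts in the remaining control libraries, against 12 and 19 counts under heat stress. The median of all members then was 0.02 and 5 were higher at an unadjusted p under 0.05, where 5.84% of all genes were. One of these was Cox8b, whose control counts are too few to draw anything from its p. The others were Uqcrc1 (0.48), Ndufa10 (0.47), Ndufv3 (0.47) and Atp5g2 (0.46), with adjusted p values from 0.357 to 0.411. With the mean log2 level of the muscle markers as a covariate, 1 member was higher, against 5.5% of all genes, while the median was 0.11 and 68 members lay above 0 and 9 below, against 44 and 33 without it.

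In brain the same isoforms were present at low levels, and none passed the threshold. Cox6a2 took between 0.956% and 2.57% of the counts on its pair, Cox7a1 between 0.830% and 1.96% and Cox8b between 0.307% and 1.07%. Their log2 fold changes under heat stress were -0.14, 0.31 and -0.34.

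The difference between the heat stress effects in liver and brain was tested in a fit of all 12 libraries. At an adjusted p under 0.05, edgeR called 0 of 79 members, against 0.00632% of all genes, and the smallest adjusted p was 0.516. At an unadjusted p under 0.05, the effect was lower in liver than in brain in 8 members, against 5.91% of all genes, and higher in 0, against 3.73%. DESeq2 called 0 members at an adjusted p, against 0.437% of its genes. At an unadjusted p it called 6 lower, against 4.39%, and 1 higher, against 3.89%. The median difference over the members was -0.39 on the log2 scale, against -0.04 over all genes.

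Of the 8, 7 belong to complex I and 1 to complex III. They were Ndufa2 (-0.86), Ndufa1 (-0.81), Ndufv2 (-0.78), Ndufa5 (-0.76), Ndufb3 (-0.64), Ndufc2 (-0.60), Ndufs6 (-0.54) and Uqcrb (-0.86). The count rests on single libraries. It was 0 without brain control replicate 1 or 3 or brain heat stress replicate 1 or 2, fits in which 2.71% to 3.09% of all genes were lower. It was 1 without liver control replicate 2 (5.14% of all genes) or liver heat stress replicate 2 (4.89%), and 4 without brain heat stress replicate 3 (4.23%) or liver control replicate 3 (6.53%). Without liver heat stress replicate 1 it was 14, against 7.34% of all genes, and without liver control replicate 1 it was 26, against 7.64%.

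The members with the smallest p in the other complexes were also lower in value. In complex III Uqcr11 gave -0.63, Uqcrh -0.55 and Uqcrq -0.54, and in complex IV Cox6c gave -0.91, Cox7c -0.85, Cox7b -0.84 and Cox7a2 -0.81. In complex V Atp5md gave -1.03, Atp5l -0.81, Atp5mpl -0.80 and Atp5h, of the peripheral stalk, -0.52. Complex II ranged from -0.42 for Sdhb to -0.03 for Sdha. None of these reached the unadjusted threshold.

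Between the tissues, with counts scaled by TMM, the members were lower in brain than in liver. At an adjusted p under 0.05, edgeR called 75 of 79 lower in brain, against 38.3% of all genes, and 1 higher, against 47.4%. The median log2 difference was -1.42, while all genes had a median of 0.24. By complex the median was -2.01 in complex II, -1.64 in complex III, -1.50 in complex V, -1.42 in complex IV and -1.28 in complex I.

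Uqcrq, an accessory subunit of complex III, had the largest difference, with 70.4 to 150 CPM in brain (median 111) and 593 to 1052 CPM in liver (median 796). Its log2 difference was -2.93 with an SE of 0.19, and every brain library lay below every liver library. Sdhd, an anchor of complex II, had 60.2 to 80.6 CPM in brain and 413 to 472 CPM in liver, a log2 difference of -2.67 with an SE of 0.11. Both ranges are far apart, since the highest brain library of each gene lay under its lowest liver library.

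The other members of complex II followed, with -2.04 for Sdhc, -1.99 for Sdhb and -1.16 for Sdha, so that the succinate-oxidising flavoprotein differed least. In complex III the Rieske protein Uqcrfs1 had 77.8 to 107 CPM in brain and 406 to 461 CPM in liver, a log2 difference of -2.22 with an SE of 0.11. In complex I the clearest were the core subunit Ndufs3 at -1.49 (SE 0.09) and the accessory subunits Ndufs6 at -2.04 (SE 0.13) and Ndufa6 at -2.30 (SE 0.19). Ndufv3 followed at -1.68, and in complex III Uqcrb at -2.21 and Cyc1 at -1.64.

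In complex IV, Cox5a had 94.5 to 126 CPM in brain and 307 to 389 CPM in liver, a log2 difference of -1.63 with an SE of 0.11, and Cox7c gave -1.84 and Cox6b1 -1.23. In complex V Atp5pb, of the peripheral stalk, gave -1.56 and Atp5c1, the rotating shaft of the head, -1.48. The c ring genes Atp5g1 and Atp5g3, whose proteins are identical once imported, gave -1.86 and -2.08, with an SE of 0.10 and 0.12. Atp5b had 807 to 892 CPM in brain and 1076 to 1929 CPM in liver, a log2 difference of -0.81 with an SE of 0.16, and so lay nearer to its liver level than the median member.

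Cox6b2, an isoform known from testis, was the member higher in brain, with 1.64 to 3.77 CPM there and 0.229 to 0.729 CPM in liver, a log2 difference of 2.67 with an SE of 0.31. With 2 to 7 counts in each liver library it failed the filter there and entered the test through its brain level, so its direction was set by the filter and is given as a description. It took 1.09% to 1.64% of the counts on Cox6b1 and Cox6b2 in brain and 0.0456% to 0.167% in liver. Cox8a (-0.21), Cox6a2 (-0.95) and Cox8b (-1.64) were not called, and the last pair has its liver counts mostly in the libraries with muscle markers.

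How far the members lie below liver depends on the scaling. TMM factors were between 1.41 and 1.51 in brain and between 0.62 and 0.72 in liver. With library totals alone the median of all genes was 1.34, that of the members -0.34, and 38 members were called lower and 8 higher. In that fit 21.2% of all genes were lower and 68.5% higher at an unadjusted p under 0.05. Of 79 members 21 then lay above 0, against 1 with TMM, among them Atp5b (0.31), Ndufs1 (0.49), Cox5b (0.27), Cox6a1 (0.43) and Cox7a2l (0.70). All of those named still lay under the median of all genes, which this scaling moved up from 0.24. Their change of sign therefore shows nothing about the members apart from other genes. Relative to the median of all genes, the members lay at -1.66 with TMM. As a share of a library's TPM, in which counts are divided by transcript length before scaling, the members were not lower in brain, with 3.56% to 5.91% (mean 4.65% ± 0.804, SD, n = 6) there and 3.32% to 4.84% (3.99% ± 0.538, n = 6) in liver, and the ranges overlapped.

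Per length, the order of the members also differed between the tissues. On the TPM scale, with the length of the principal transcript, Cox8a was the highest member in control brain at 1952 ± 200 (SD, n = 3), followed by Cox6c at 1812 ± 437 and Atp5b at 1695 ± 61.4. Cox8a and Cox6c did not differ beyond their spread. In control liver Ndufa4 at 2135 ± 873 and Cox6c at 1999.5 ± 883 led, again within their spread, while Atp5b was at rank 19 and Cox8a at rank 24.

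Not every member could be tested. Ndufs5, an accessory subunit of complex I, and Cox8c had 0 counts in all 12 libraries. Cox7b2 had 2 to 6 counts in each brain library and 0 in liver, and Cox7c-ps1 at most 4 in any library. In liver, Cox6a2 and Cox6b2 also failed the filter on low counts. How reads shared between a subunit and near-identical copies of it were counted is not given in the sources used here, and values of members with such copies are uncertain to that extent.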

How the data were processed

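Per the labels, poly(A) RNA of 12 libraries was sequenced as paired ends. The authors deposited raw counts for 25239 gene symbols, without normalization. Their processing notes name Trimmomatic 0.39, HISAT2 2.2.1, featureCounts in Subread 2.0.1 and the mouse build mm10, whereas another part of the study's methods names Tophat2 and HTSeq. The annotation release, the strand setting and the treatment of multiply mapped reads are not given in the sources used here. Deposited tables of the authors' own comparisons, which hold log2 fold changes and p-values, were not used.

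From the counts, edgeR 4.0.16 in R 4.3.3 was fitted within each tissue, and over all 12 libraries for brain against liver and for the difference in the heat stress effect. The quasi-likelihood test used TMM factors, and p-values were adjusted by Benjamini-Hochberg over all genes tested. Low genes were removed by filterByExpr (at least 10 counts by its rule, 15 in total). SE was derived from the F statistic and the log2 fold change. DESeq2 1.42.0, other scalings and filters, a replicate block, offsets for length and GC content, covariates and each library left out were alternatives. Principal transcripts and gene positions came from GENCODE M21 on GRCm38. The procedure was tested on simulated counts.

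The members, lists and tests were chosen with earlier results of these data known. Named genes are, for each comparison, the 4 members of each complex with the smallest p, with all of complex II, and the catalytic members and tissue isoforms. Others, such as Cox6c in brain and those singled out for their size or for a change of call, were chosen after their values were seen. Shares carry exact binomial intervals at 95% confidence.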

Additional observations from a re-analysis of the deposited data

How the results depend on the processing

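In brain, the median of the members stayed above 0 in every alternative run, and the number called varied. With length and GC offsets 62 members lay above 0 and 17 below, against 74 and 5 without, and Atp5g3 (-0.051) and Ndufa11 (-0.034), both higher at an unadjusted p without them, changed sign. DESeq2 called 32 members higher at an adjusted p, and edgeR 0 under each alternative. At an unadjusted p, leaving out 1 library gave 24 to 56 members higher, while 4.85% to 13.6% of all genes were (medians 0.34 to 0.58, relative to all genes 0.35 to 0.58). Length and GC offsets gave 21 (median 0.16, and 0.16 relative to all genes), and with the replicate block in the same fit again 21 (0.16 and 0.16). Without control replicate 1 and heat stress replicate 2 there were 9 higher and 1 lower, with a median of 0.25 (0.25 relative to all genes). The cause of these shifts was not tested.

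In liver the number of members higher at an unadjusted p was 0 to 3 when a library was left out (1.78% to 7.11% of all genes), with 0 to 1 lower (1.45% to 5.78%) and medians of -0.06 to 0.22. It was 1 with DESeq2 and 1 in the fit of 4 groups, where 3.32% of all genes were higher. Without the pair with muscle markers it was 5, with the muscle covariate 1 and with the suffix covariate 2. For the difference between the tissues' effects, the number lower was 4 with RLE factors (4.88% of all genes), 5 with no filter (3.6%), 4 with length and GC offsets (5.83%, median -0.15, relative to all genes -0.094), 13 with the replicate block (5.18% of all genes), 21 without the muscle pair (6.34%, with 3 higher against 8.07%) and 0 to 26 without single libraries (2.71% to 7.64%, with 0 to 2 higher, medians -0.49 to -0.26, relative to all genes -0.55 to -0.18). DESeq2 gave 1 higher.

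Between brain and liver, library totals alone gave 38 lower and 8 higher, a median of -0.34, and 21 members above 0 against 1 with TMM. In that fit 21.2% of all genes were lower and 68.5% higher at an unadjusted p under 0.05, and their median was 1.34. Members reversed with library totals included Ndufs1 (0.49), Ndufv1 (0.14), Uqcrc1 (0.082), Cox5b (0.27), Atp5b (0.31), Cox6a1 (0.43), Cox7a2l (0.70) and Ndufa10 (0.038). All of these still lay under the median of all genes, which was 1.34 with library totals and 0.24 with TMM. Length and GC offsets gave a median of -0.95 (-0.75 relative to all genes) and reversed Cox7a2l (0.20). The number higher was 2 with DESeq2, 2 with no filter and 3 without the muscle pair. In these fits 41.2%, 41.2% and 49.5% of all genes were higher at an unadjusted p under 0.05. Leaving out 1 library gave 73 to 76 lower, 1 higher and medians of -1.53 to -1.38. At an unadjusted p under 0.05, 37.7% to 39.2% of all genes were then lower and 45.9% to 48.7% higher.

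The replicate numbers were not taken to pair the samples. Deviations of same-numbered brain libraries correlated at -0.29, 0.19 and -0.20, and those of liver at -0.58, -0.51 and -0.09. Across the tissues, same-numbered controls gave 0.20, 0.16 and 0.08, and same-numbered heat stress libraries 0.03, -0.10 and 0.01. Libraries with different numbers gave -0.20 to 0.05 in the controls, all under the same-numbered values, and -0.12 to 0.10 under heat stress. With the replicate block 53 members were higher in brain, against 9.84% of all genes, and 0 in liver, against 1.56%. Depth limits Cox6a2, Cox8b and Cox6b2 in liver, where several libraries had 5 counts or fewer.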

Other observations

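Genes around the pathway also differed between the tissues, in a comparison that does not use heat stress. At an adjusted p under 0.05, edgeR called 34 of 45 assembly factors lower in brain and 4 higher, with a median log2 difference of -0.89, where 38.3% of all genes were lower and 47.4% higher. Ppargc1a, the coactivator of mitochondrial biogenesis, was higher in brain by 1.60 (SE 0.14), whereas Tfam was lower at -1.56 (SE 0.12), Gabpa at -1.66 (SE 0.09) and Ppara, a regulator of fatty acid oxidation in hepatocytes, at -5.69 (SE 0.18). Atpif1, the inhibitor of ATP synthase hydrolysis, was higher in brain by 2.14 (SE 0.14), and Cycs, cytochrome c, lower at -1.20 (SE 0.15).

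Of the adenine nucleotide carriers, Slc25a4 was higher in brain by 3.49 (SE 0.81) and Slc25a5 lower at -1.98 (SE 0.13). In liver under heat stress, the assembly factors had a median log2 fold change of -0.07, and 0 of 45 had an unadjusted p under 0.05 with edgeR. Among the regulators Ppargc1b was at 0.64 (SE 0.24, adjusted p = 0.799), the only 1 of 11 with an unadjusted p under 0.05. At that threshold 2.97% of all genes were higher and 2.87% lower.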
